A study of Saccharomyces cerevisiae with 12 samples.

Results

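The comparison described here set an evolved *ulp2Δ* line of *Saccharomyces cerevisiae*, line 9, against nascent *ulp2Δ* cells. It rests on 6 of the 12 RNA-seq libraries, the 3 labelled ulp2D 500G #9 and the 3 labelled ulp2D. All named genes with enough counts entered it, 6372 of 7108 named features. Genes whose systematic ids place them on chromosome I or XII (ids starting YAL, YAR, YLL or YLR) were kept apart from the rest, which gave 649 genes on these chromosomes and 5723 elsewhere.

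The study followed how yeast adapts to the loss of the SUMO protease Ulp2, and the deletion of *ULP2* from its chromosome is common to every strain, built on MHY1379. WT cells carried *ULP2* on the plasmid YCplac33-ULP2. Nascent *ulp2Δ* cells had lost this plasmid on medium with FOA, which selects against the *URA3* marker, and had been passaged little. In the paper's scheme the plasmid, empty or with *ULP2*, was put back into cells after this loss. Whether the nascent and line 9 cells used for RNA held the empty plasmid is not stated. Line 9, like line 6, had then been diluted and regrown for 500 generations without Ulp2, and RNA was taken from cells growing exponentially in the rich medium YPD. The paper names the evolved lines it profiled as Uba2 C162S and Uba2 C162S, A414P. Line 9 thus carries C162S, and whether it also carries A414P is not given by its label. The paper presumes that C162S was already in the founder colony. Line 9 is 1 evolved line, and the replicates are numbered without a statement that they were separate cultures. The p-values thus measure only the spread between these libraries, which may be technical. In RNA from a whole culture, fewer cells of a kind and less RNA per cell cannot be told apart.

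SUMO (*SMT3*) is a small protein that is attached to other proteins by the E1 enzyme Aos1/Uba2, the E2 enzyme Ubc9 and E3 ligases such as Siz1, and Ulp2 trims the chains it forms. In budding yeast the genes of cytosolic ribosomes and of their assembly are transcribed at levels tied to growth, while many genes of mitochondrial respiration are repressed when glucose is plentiful. Both groups, and the genes of mating, daughter-cell separation and stress, are described below by the roles of their products.

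Counts on named genes ranged from 20467216 to 25793918 in the nascent libraries and from 23087468 to 30719553 in those of line 9. *ULP2* had 10, 5 and 5 counts in the nascent libraries and 8, 4 and 20 in those of line 9, against 386 ± 15.9 CPM (TMM-scaled counts per 1000000) in WT (SD, n = 3). The deleted gene was thus near 0 in all 6 libraries. Features of ribosomal RNA took 0.297% to 0.369% of the nascent counts and 0.185% to 0.271% of the line 9 counts, and libraries of a group differed beyond sampling noise.

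Genes on chromosomes I and XII were lower in line 9 than in nascent cells as a block. The median log2 fold change was -0.80 over the 103 genes tested on chromosome I and -0.76 over the 546 on chromosome XII, against 0.06 for the 5723 genes elsewhere. Relative to those, the shift was -0.86 for chromosome I, a ratio of 0.552, and -0.83 for chromosome XII, a ratio of 0.564. Of the genes on chromosome I, 96 (93.2%) lay below the median of the genes elsewhere, and 513 (94.0%) did on chromosome XII. The shift was spread along both chromosomes, since the shift in each of 4 stretches of equal gene number lay between -0.65 and -0.91 on I and between -0.74 and -0.87 on XII.

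Set against the mean of the WT libraries, the nascent libraries stood at 0.81, 0.84 and 0.77 (log2) on chromosome I and the line 9 libraries at 0.01, 0.06 and 0.05. On chromosome XII the nascent values were 0.81, 0.79 and 0.80 and the line 9 values -0.04, -0.04 and -0.03. The groups did not overlap on either chromosome, and line 9 lay near WT (two-sided exact permutation test, p = 0.1 for each chromosome, the smallest that 3 libraries against 3 allow). In the share of counts, genes of chromosome XII took 13.5% to 13.8% of the nascent libraries and 7.89% to 7.97% of those of line 9, with 8.33% to 8.35% in WT.

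Chromosome XIII also stood apart, which was noticed after its value was seen. The median over its 490 tested genes was -0.29, while those of the other 13 chromosomes lay between 0.03 and 0.16. Relative to genes off I and XII its shift was -0.36, and 382 genes (78.0%) lay below the median of those genes. The nascent libraries stood above WT on this chromosome by 0.14, 0.14 and 0.16 (log2), and the line 9 libraries stood below it at -0.23, -0.23 and -0.21. Thus chromosome XIII went from slightly above WT to below it, whereas I and XII went from far above WT to its level. This was not particular to line 9. The line 6 libraries stood at -0.22, -0.19 and -0.20 on XIII, 0.02 to 0.06 on I and -0.06 to -0.04 on XII. The 4 stretches of chromosome XIII ranged from -0.27 to -0.40 in line 9 against nascent cells. The nascent and line 9 libraries lay between -0.06 and 0.07 on the other 13 chromosomes. The copy number of the chromosomes was not analysed here, and its part in these shifts was not tested.

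**Figure D1:**
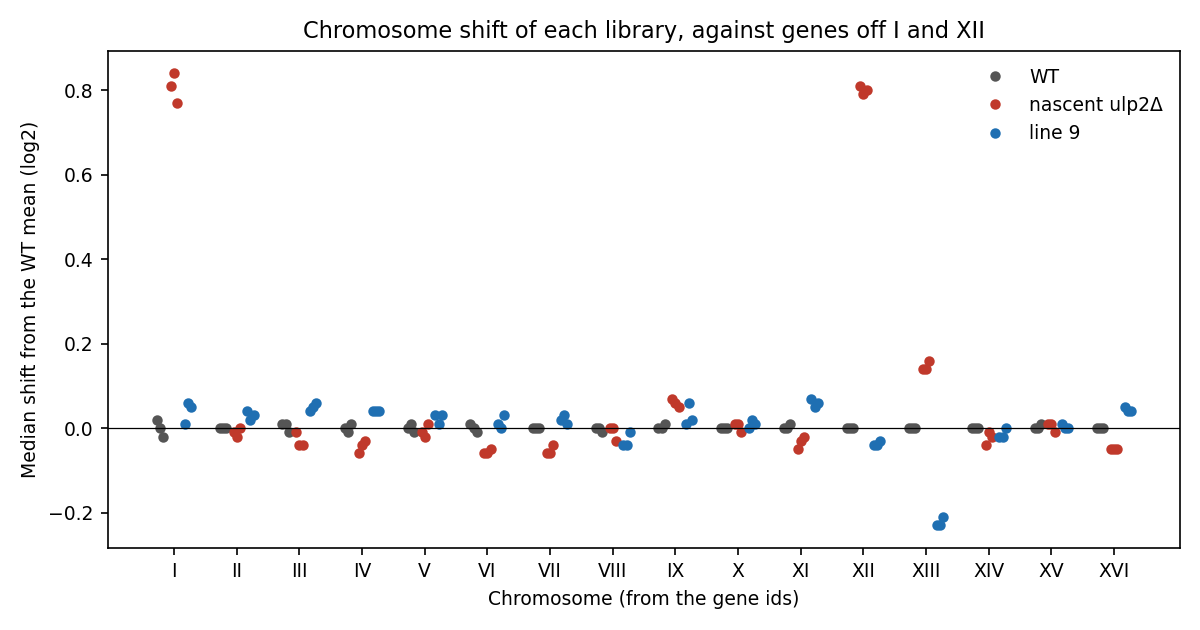
Median shift of each of the 16 chromosomes from the WT mean, on the log2 scale and relative to genes off chromosomes I and XII. Each point is 1 library of WT (grey), nascent *ulp2Δ* (red) or line 9 (blue). The nascent libraries sit between 0.77 and 0.84 on I and XII, where line 9 sits between -0.04 and 0.06, and line 9 sits below -0.20 only on XIII.

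A gene was called when its change reached 2-fold and its Benjamini-Hochberg adjusted p in edgeR's quasi-likelihood test was under 0.05. Off chromosomes I and XII, 233 genes rose in line 9 (4.07% of those tested) and 456 fell (7.97%). On chromosomes I and XII, 6 genes rose (0.924%) and 221 fell (34.1%). Scaling by library totals instead of TMM, which moves the median of all genes by -0.18, gave 138 higher and 605 lower genes off I and XII, so that 18.6% of the calls there were higher instead of 33.8%. With scaling factors taken without the genes of I and XII they were 186 and 523. The range of single genes on the low chromosomes was wide, with 413 of the 649 genes (63.6%) within 0.5 (log2) of their chromosome's median, 67 at least 2-fold below it and 28 at least 2-fold above it.

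Genes with large changes are named here only if the group with the higher level had a mean of at least 50 counts, the libraries of the groups did not overlap and DESeq2 also called them; a few called genes outside this filter had larger fitted changes. Among the genes that passed it, the largest rises off I and XII were those of the a-factor genes, *MFA1* (chromosome IV from 1385176 to 1385286 in the sacCer3 build, plus strand) and *MFA2*, which both encode the mating pheromone that a cells secrete. *MFA1* had 87.7, 76.2 and 81.3 CPM in the nascent libraries and 669.5, 697 and 746 in those of line 9 (log2 fold change 3.11, standard error 0.07, adjusted p = 1.25e-14). For *MFA2* the values were 64.6, 66.6 and 61.7 CPM and 467, 491 and 469 CPM (log2 fold change 2.89, standard error 0.05, adjusted p = 3.28e-15). Every line 9 library was several times above every nascent one, and WT, at 374 ± 33.9 CPM for *MFA1* and 350.4 ± 13 CPM for *MFA2* (SD, n = 3), lay between the groups.

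Of the other 8 genes with the largest rises by this rule, *YRO2*, a membrane protein of the plasma membrane and mitochondria, went from 181, 177 and 199.9 CPM to 990.4, 1018 and 1048 CPM (log2 fold change 2.45, standard error 0.05, adjusted p = 8.1e-15). *STL1*, the glycerol proton symporter, had 121, 118 and 126 CPM in nascent cells and 536, 542 and 550.5 CPM in line 9 (log2 fold change 2.15, standard error 0.04, adjusted p = 5.71e-15). *YHB1*, the flavohemoglobin that detoxifies nitric oxide, had 356, 344 and 381 CPM and 1417, 1477 and 1515 CPM (log2 fold change 2.03, standard error 0.04, adjusted p = 7.63e-15). In all 3 genes the groups were far apart, and *YHB1* in line 9 was close to its WT level of 1578 ± 24 CPM (SD, n = 3). The remaining rises were *DPC7* (2.45), the nuclear gene *AIM33* (2.01), *HOP2* (2.00), which acts in meiotic chromosome pairing, and the uncharacterised *YER138W-A* (2.02) and *YER053C-A* (1.99), all as log2 fold changes. *HOP2* and *YER138W-A* were low, at 6.65 CPM or less in each of the 6 libraries.

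Among the 10 largest falls by the same rule, *BTN2*, which sorts misfolded proteins into deposits, dropped from 761, 837 and 822 CPM to 56.1, 52.2 and 52.7 CPM (log2 fold change -3.91, standard error 0.05, adjusted p = 3.95e-16). *HXT2*, a high-affinity glucose transporter on chromosome XIII, went from 117, 123 and 117 CPM to 12, 12.5 and 13.1 CPM (log2 fold change -3.24, standard error 0.07, adjusted p = 7.63e-15). Both ended below WT, which had 149.5 ± 8.52 CPM of *BTN2* and 43 ± 2.44 CPM of *HXT2* (SD, n = 3). *YMR141C*, an open reading frame on chromosome XIII with no standard name, had 440, 491 and 434 counts in the nascent libraries and 2, 0 and 0 in those of line 9, a ratio of 729 in scaled counts (exact 95% interval 202 to 6028, counting error only). This gene was almost lost from line 9, and the WT libraries scattered, with 4.55 ± 5.62 CPM (SD, n = 3). Several genes of the sporulation programme stood in the same group at low levels: *SLZ1* (-3.50), the outer spore wall gene *OSW1* (-3.36) and *IME4* (-3.11), the RNA methyltransferase that promotes meiosis. *YMR244W* (-3.62) on chromosome XIII and *YKL177W* (-3.19) completed it with under 6 CPM in each library.

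A pair of these falls rested on an uneven nascent group. *YNL284C-A*, a retrotransposon gene that lies wholly within *YNL284C-B*, had 10, 530 and 475 counts in the nascent libraries and 10, 13 and 10 in line 9 (log2 fold change -4.95, standard error 0.86, adjusted p = 8.75e-05). *snR7-L*, the long form of the U5 spliceosomal RNA, had 27, 966 and 682 and 21, 25 and 26 counts (log2 fold change -4.55, standard error 0.88, adjusted p = 0.000239). In both, nascent replicate 1 was near line 9 and the other 2 nascent libraries were far above it. Limma-voom did not call either gene (adjusted p = 0.0655 and 0.0671, same adjustment), and how reads of overlapping or repeated copies were assigned is not stated.

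Of the 6 rises on chromosomes I and XII, against the chromosome-wide fall, 5 passed the filter for naming. *ACO1*, the aconitase of the TCA cycle, went from 1727, 1764 and 1881 CPM to 4854, 4910.4 and 5315 CPM (log2 fold change 1.49, standard error 0.05, adjusted p = 7.14e-13), which is 2.25 above the median of its chromosome. *IDP2*, the cytosolic NADP-dependent isocitrate dehydrogenase, went from 1014, 1009 and 1066 CPM to 2308, 2346 and 2327 CPM (log2 fold change 1.18, standard error 0.04, adjusted p = 2.91e-13). Neither gene's groups overlapped. The others were *PHO11* (1.21), an acid phosphatase nearly identical to *PHO12* so that reads may be shared, *YLR256W-A* (1.23) and *YLR235C* (1.10). *YLR235C* had only 1.62, 2.71 and 1.82 CPM in line 9 and lost its call without line 9 replicate 2 (0.85).

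Among the 5 largest falls on these chromosomes that passed the same filter, *AFB1* and *NCW2* had the most counts. *AFB1*, the a-factor barrier gene, known from alpha cells, had 98.6, 94.3 and 91.7 CPM in nascent cells and 8.84, 9.35 and 8.77 CPM in line 9 (log2 fold change -3.40, standard error 0.09, adjusted p = 7.44e-14). *NCW2*, a gene of the cell wall, had 732, 698 and 643 CPM and 80.3, 78 and 77.2 CPM (log2 fold change -3.14, standard error 0.06, adjusted p = 5.71e-15). They lay -2.63 and -2.37 from the median of chromosome XII, and line 9 was below the WT means of 13 and 138 CPM. *YLR412C-A* (-4.90), *PAU4* (-3.29) and the sporulation gene *SPO75* (-3.24) also fell, from nascent levels of under 10 CPM.

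**Figure D2:**
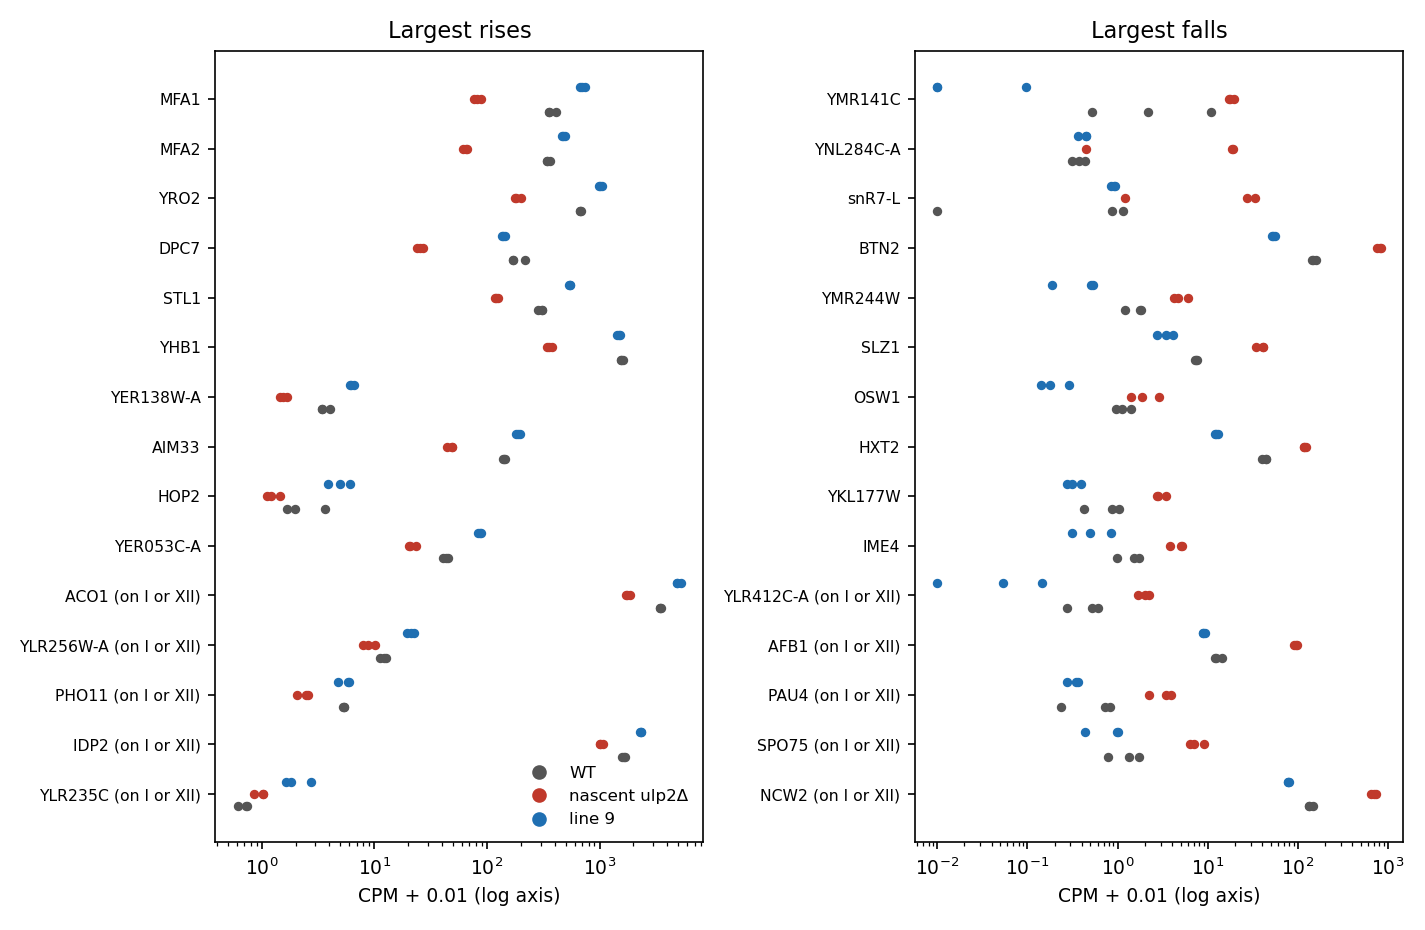
CPM in each library of the genes with the largest rises (left) and falls (right) that passed the filter for naming, on a log axis after adding 0.01, with 1 point per library of WT (grey), nascent *ulp2Δ* (red) and line 9 (blue). Nascent and line 9 points do not overlap in any row, and for YNL284C-A and snR7-L 1 nascent point lies beside those of line 9.

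*MFA1* and *MFA2* belong to the 7 a-specific genes, which only a cells transcribe. Of the other 5 genes of this list, 4 rose and none fell, with a median log2 fold change of 1.56, against 0.00 over all 6372 tested genes, of which 3.75% rose and 10.6% fell. *STE2*, the receptor for alpha-factor, went from 80.6, 82.6 and 77.3 CPM to 241, 260.2 and 242 CPM (log2 fold change 1.63, standard error 0.04, adjusted p = 5.23e-14). *STE6*, the transporter that exports a-factor, went from 63.7, 61.3 and 58.1 CPM to 200.3, 199.5 and 210.3 CPM (log2 fold change 1.74, standard error 0.04, adjusted p = 1.29e-14). The line 9 values of these genes were above the WT means of 189 and 125 CPM. Without the a-factor genes the list took 0.0255% to 0.0277% of the nascent counts, 0.0694% to 0.0719% of the line 9 counts and 0.0513% to 0.0534% of the WT counts.

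Promoters of 3 of these genes are shown because the members moved together and hold TGAAACA, the pheromone response element bound by Ste12. Each line gives the 150 bases that begin 250 before the start codon, 5′ to 3′ on the gene's strand, read from the R64 (sacCer3) genome of RefSeq. Capitals mark TGAAACA or its reverse complement TGTTTCA. The stretches are chrXIV:352164-352313, plus strand for *MFA2*, chrVI:82330-82479, plus strand for *STE2* and chrXI:46396-46545, minus strand for *STE6*.
MFA2: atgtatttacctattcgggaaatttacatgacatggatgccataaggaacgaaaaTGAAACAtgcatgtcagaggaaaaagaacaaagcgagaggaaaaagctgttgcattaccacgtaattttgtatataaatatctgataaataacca
STE2: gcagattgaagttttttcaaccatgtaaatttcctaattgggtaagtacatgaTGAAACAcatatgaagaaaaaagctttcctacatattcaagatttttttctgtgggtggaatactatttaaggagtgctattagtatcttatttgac
STE6: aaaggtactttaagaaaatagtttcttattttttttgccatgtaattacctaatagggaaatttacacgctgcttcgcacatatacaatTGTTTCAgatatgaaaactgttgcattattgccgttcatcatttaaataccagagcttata
Searched on both strands in the 300 bases from 250 before to 50 after the start codon, this motif was in 5 of the 7 a-specific promoters (71.4%), in 16 of the 25 promoters of the pheromone response list (64%) and in 7.37% of the 5836 promoters of tested protein-coding genes. The a-specific and pheromone response lists share genes, so their shares are not independent. The motif was chosen after the rises were seen, and a match is a description of the letters, not a bound site.

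In the wider pheromone response list, 10 of 25 genes rose (40.0%, against 3.75% of all genes) and 1 fell, with a median of 0.71. This list includes *MFA1* and other a-specific genes already described, so its share of rises is not separate from theirs. Beside the a-specific genes these included *FAR1* (1.59), the cyclin-dependent kinase inhibitor that arrests cells in G1, and the haploid-specific *GPA1* and *FUS3*. *GPA1*, the G protein alpha subunit of the pheromone receptor, had 40.6, 44.5 and 38.8 CPM and 105, 100.5 and 95.3 CPM (log2 fold change 1.28, standard error 0.06, adjusted p = 1.82e-11), and *FUS3*, the MAP kinase of the pathway, had 109, 112 and 112 CPM and 249, 241 and 239 CPM (log2 fold change 1.13, standard error 0.04, adjusted p = 2.69e-12). The groups were apart in both, and both stood near WT, at -0.14 and 0.24 from it (log2, line 9 minus WT). The single fall, *PRM3* (-1.02), had overlapping libraries at under 2 CPM, and its call was lost when line 9 replicate 2 or 3 or nascent replicate 1 or 2 was left out, with values of -0.98 to -0.83. *PRM5* had a value of -0.52.

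The alpha-specific genes, which a cells do not need for mating, fell in 3 of 4 cases, where 10.6% of all genes fell. *STE3*, the a-factor receptor, had 8.67, 9.48 and 8.92 CPM in nascent cells and 3.28, 2.87 and 2.88 CPM in line 9 (log2 fold change -1.58, standard error 0.20, adjusted p = 3.41e-06), and *MF(ALPHA)2*, an alpha-factor gene, had at most 0.66 CPM in any of these libraries (log2 fold change -1.68, standard error 0.49, adjusted p = 0.00616). *MF(ALPHA)1* was the other fall (-1.32). *SAG1*, the alpha-agglutinin, had 67.5, 59.7 and 54.5 and 65.7, 64.1 and 63.7 CPM, which overlap. Of the 5 early meiosis genes, 2 fell (40.0%, against 10.6% of all genes) and none rose. *IME1*, the master regulator of meiotic entry, went from 89.7, 86.1 and 86.9 CPM to 41.2, 36.5 and 35.5 CPM (log2 fold change -1.22, standard error 0.06, adjusted p = 2.95e-11), and *SPO13* had a value of -1.56 from 1.41, 1.61 and 1.45 CPM in the nascent libraries. *IME1* in line 9 was near its WT level of 38 ± 1.77 CPM (SD, n = 3).

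Genes of daughter-cell separation, which dissolve the septum between mother and daughter after division, fell as a list. Of 15 genes 9 fell and none rose, with a median of -1.39. *CTS1*, the chitinase that cleaves the septum, went from 1677, 1639 and 1744 CPM to 434, 439 and 462 CPM (log2 fold change -1.92, standard error 0.04, adjusted p = 1.07e-14); it lies on chromosome XII and stood -1.16 from that chromosome's median. *DSE4*, a daughter-specific glucanase on chromosome XIV, went from 185, 182 and 189 CPM to 63.9, 56.6 and 59 CPM (log2 fold change -1.63, standard error 0.04, adjusted p = 7.44e-14). *ASH1*, a daughter-specific repressor of mating-type switching, had a higher value (0.65) that did not reach 2-fold. In line 9 *CTS1* and *DSE4* stood -1.62 and -0.73 from WT (log2, line 9 minus WT), and the list took 0.148% to 0.153% of the line 9 counts against 0.383% to 0.400% of the nascent and 0.320% to 0.326% of the WT counts.

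Among 13 genes for cyclins and their regulators, 4 fell (30.8%, against 10.6% of all genes), 1 rose (*FAR1*, above) and the median was -0.88. Off I and XII 3 of 10 fell. The falls were led by the B-type cyclins *CLB6* (-1.81), which acts in S phase, and *CLB4* (-1.80) on chromosome XII, while *CLB5* had a value of 0.20. *CLB4* had 37.1, 38.5 and 33.3 CPM in nascent cells and 10.3, 9.86 and 11.1 CPM in line 9 (log2 fold change -1.80, standard error 0.10, adjusted p = 1.72e-10), which placed it at -1.04 from the median of its chromosome.

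Cytosolic ribosomal protein genes were lower across both subunits. In the small subunit 42 of 57 genes fell and none rose (median -1.23), and in the large subunit 57 of 81 fell and none rose (median -1.25). These are 73.7% and 70.4% of the lists, against 10.6% of all genes. Off I and XII 35 of 49 and 47 of 71 fell, against 7.97% of all genes there. The 138 genes took 5.69% to 5.86% of the counts of the nascent libraries and 2.15% to 2.27% of those of line 9. WT lay between, at 3.45% to 3.51%, so line 9 went past WT for this group; its medians against WT were -0.71 and -0.74.

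The largest falls in the large subunit were those of *RPL22A* and *RPL6B*, both on chromosome XII. *RPL22A* went from 314, 315 and 313 CPM to 59.6, 59.7 and 57.6 CPM (log2 fold change -2.41, standard error 0.04, adjusted p = 2.81e-15), and *RPL6B* from 231, 236 and 242 CPM to 46.8, 46.1 and 43.9 CPM (log2 fold change -2.38, standard error 0.05, adjusted p = 1.29e-14). In the small subunit they were *RPS29A* on XII, from 288, 288 and 271 CPM to 61.2, 69.7 and 58.3 CPM (log2 fold change -2.16, standard error 0.07, adjusted p = 9.42e-13), and *RPS9A* off I and XII (-2.06). No library of one group reached the other in any of these genes. The exceptions among large subunit genes were *RPL41A* (0.31) and *RPL4A* (0.13) with higher values under 2-fold; *RPL4A* was -0.05 under library totals.

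Most ribosomal proteins of yeast are encoded by a pair of near-identical genes, so copies of a product at different positions can be compared. In 14 of 59 pairs 1 copy lay on chromosome I or XII and the partner elsewhere. The copy on I or XII had the lower log2 fold change in 13 of these 14, with a median difference of -0.71, and the medians were -1.95 for these copies and -1.17 for their partners. The partners thus had a median below -1 as well. Some partners lie on chromosome XIII, which was itself shifted: *RPL6A* (-1.70), *RPL15B* (-0.44) and *RPS1B* (-1.78). *RPS1* was the pair that went the other way, so position and product are not fully separated. For *RPL22* the values were -2.41 for the copy on XII and -2.01 for *RPL22B* elsewhere. Reads of such copies can be shared in counting, so the values of single copies are uncertain.

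Genes that build ribosomes changed less. In the small subunit processome, which processes the pre-rRNA, 8 of 51 genes fell (median -0.39), 5 of them on I or XII, and among pre-60S assembly factors 4 of 62 fell (median -0.29); no gene of either list rose. Off I and XII 3 of 44 and 2 of 55 fell, shares below the 7.97% of all genes there. *SNU13*, a protein of box C/D snoRNPs and the spliceosome, went from 101, 97.4 and 99.5 CPM to 25.5, 25.7 and 24.6 CPM (log2 fold change -1.97, standard error 0.04, adjusted p = 5.71e-15). *EMG1*, the rRNA methyltransferase on chromosome XII, had 78.9, 76.6 and 75.6 CPM and 21.6, 20.8 and 23.2 CPM (log2 fold change -1.82, standard error 0.05, adjusted p = 2.25e-13). These were clear separations, in contrast with *FCF1* (0.46) and *ROK1* (0.35), whose values were higher and under 2-fold. In the pre-60S list *MAK16* (-1.21) on chromosome I and *MRT4* (-1.09) fell, and *MAK21* (0.77) and *SSF2* (0.63) had higher values that were not called. The RNA polymerase I list, which transcribes the rRNA genes, had a median of -0.56. Its 1 fall of 11 genes (9.09%, near the 10.6% of all genes) was *RRN11* (-1.27) on chromosome XIII. *RPA34* was at -0.95, *RRN3* at 0.26 and *RRN6* at 0.23.

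The promoters of these lists shared GATGAG, the core of the PAC element of ribosome assembly genes, which was in 88.2% of the processome promoters, 93.5% of the pre-60S promoters and 20.1% of all tested promoters, on either strand. Among 37 translation factors 4 fell (10.8%, near the 10.6% of all genes) and none rose (median -0.15), with 3 of the falls on I or XII and 1 among the 32 genes elsewhere. *ANB1*, the eIF5A copy used when oxygen is low, went from 17.5, 16.5 and 15.2 CPM to 4.03, 3.94 and 3.4 CPM (log2 fold change -2.11, standard error 0.15, adjusted p = 3.78e-09). *EFB1*, an elongation factor subunit on chromosome I, went from 803, 818 and 781 CPM to 331, 347 and 326 CPM (log2 fold change -1.26, standard error 0.04, adjusted p = 3.75e-13), which was -0.46 from the median of its chromosome. *TEF1* (0.46) and *CAM1* (0.35), other elongation factor genes, had higher values below 2-fold.

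Nuclear genes of mitochondrial respiration rose. In the TCA cycle 12 of 17 genes rose and none fell (median 1.35), in the nuclear-encoded respiratory chain 10 of 23 rose and 1 fell (median 0.94), and in the ATP synthase 11 of 17 rose and none fell (median 1.11). The rises are 70.6%, 43.5% and 64.7% of the lists, against 3.75% of all genes. *MDH1*, the mitochondrial malate dehydrogenase, went from 1235, 1286 and 1337 CPM to 3859, 3888 and 4026 CPM (log2 fold change 1.61, standard error 0.05, adjusted p = 1.61e-13), and *SDH3*, a subunit of succinate dehydrogenase, went from 864, 825 and 873 CPM to 2530.4, 2544 and 2633 CPM (log2 fold change 1.59, standard error 0.04, adjusted p = 1.39e-14). *CIT3*, a minor citrate synthase, was the one TCA gene whose groups overlapped, with 106, 108 and 118 and 106, 106 and 110.4 CPM. The 57 genes of the 3 lists together took 4.48% to 4.68% of the nascent counts, 9.12% to 9.23% of the line 9 counts and 7.67% to 7.71% of the WT counts.

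In the respiratory chain *CYC1*, the cytochrome c of aerobic cells, rose from 242, 246 and 251 CPM to 975, 934 and 928 CPM (log2 fold change 1.94, standard error 0.03, adjusted p = 2.81e-15), and *CYT1*, cytochrome c1, from 854, 884 and 916 CPM to 2414, 2458 and 2482 CPM (log2 fold change 1.47, standard error 0.04, adjusted p = 1.64e-13). The only fall was *COX5B*, the form of cytochrome oxidase subunit V that yeast uses when oxygen is low, with 149.7, 151 and 143 CPM and 75.6, 69.4 and 72 CPM (log2 fold change -1.03, standard error 0.04, adjusted p = 1.24e-11). Its aerobic counterpart *COX5A*, named here for that reason, rose from 606, 623 and 665 CPM to 1569.5, 1529.7 and 1504 CPM (log2 fold change 1.28, standard error 0.04, adjusted p = 3.67e-13), so the genes for the same subunit moved in opposite directions. *CYC7*, the hypoxic cytochrome c, had a value of -0.50. In line 9 *COX5A*, *COX5B* and *CYC1* stood 0.08, 0.00 and 0.12 from WT (log2, line 9 minus WT). *STF1* (1.47), a regulator of the ATP synthase, and its subunit gene *ATP20* (1.42) led the last list.

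The next promoters are shown because CCAAT, the sequence bound by the Hap2/3/4/5 activator of respiratory genes, was frequent in these lists. It was in 64.7% of the TCA cycle promoters, 73.9% of those of the respiratory chain and 88.2% of those of the ATP synthase, against 43.3% of all tested promoters, on either strand of the same 300 bases. It was not particular to them, being in 64.7% of the peroxisomal fatty acid oxidation and 61.5% of the cyclin promoters, lists with 1 rise each. AGGGG, the stress response element, was in 35.3%, 47.8% and 47.1% of the 3 respiratory lists, against 21.8% of all tested promoters. The stretches come from the same source and positions as those above, with CCAAT or its reverse complement ATTGG in capitals. That of *SDH2* is chrXII:54032-54181, minus strand and that of *ACO1* is chrXII:737649-737798, minus strand.
SDH2: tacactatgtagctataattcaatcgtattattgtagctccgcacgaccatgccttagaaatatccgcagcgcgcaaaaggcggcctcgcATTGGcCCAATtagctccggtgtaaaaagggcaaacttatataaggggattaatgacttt
ACO1: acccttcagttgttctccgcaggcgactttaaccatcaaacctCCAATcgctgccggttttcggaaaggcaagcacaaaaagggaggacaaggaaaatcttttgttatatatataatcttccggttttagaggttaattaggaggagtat
Both genes lie on chromosome XII and were higher in line 9 against the fall of that chromosome. *SDH2*, a subunit of succinate dehydrogenase, had 1069.8, 1042 and 1067 CPM in nascent cells and 2105, 2057 and 2125 CPM in line 9, a log2 value of 0.98 that stopped short of the 2-fold threshold.

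Genes encoded in the mitochondrial genome had lower values, while many of their nuclear partners rose. Of 8 genes 1 fell (12.5%, near the 10.6% of all genes) and none rose, and the median was -0.81. *COX1*, the catalytic subunit of cytochrome oxidase, had 48.7, 49.7 and 49.3 CPM in nascent cells and 15.4, 15.1 and 18.9 CPM in line 9 (log2 fold change -1.58, standard error 0.09, adjusted p = 5.08e-10); its gene spans intron-encoded genes that share its reads. *VAR1*, a mitochondrial ribosomal protein, had 14.6, 16.3 and 14.1 CPM and 3.94, 7.68 and 11.4 CPM (log2 fold change -0.96, standard error 0.27, adjusted p = 0.00466), with a wide spread in line 9. The 8 genes took 0.0280% to 0.0295% of the nascent counts, 0.0123% to 0.0173% of the line 9 counts and 0.0352% to 0.0391% of the WT counts, with no overlap. These transcripts carry few counts, and whether their capture differed between groups was not tested. The share of ribosomal RNA features, given above, was also lower in line 9 than in nascent cells. In WT it was 0.172% to 0.274%, which overlapped line 9, although the share of the 8 genes was highest in WT. Nuclear genes for the mitochondrial ribosome rose in 7 of 71 cases (9.86%, against 3.75% of all genes) and fell in none (median 0.70). *MRPL50* (1.14) and *MRPL35* (1.12) were highest and *MRPL15* (-0.14) on chromosome XII lowest.

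**Figure D3:**
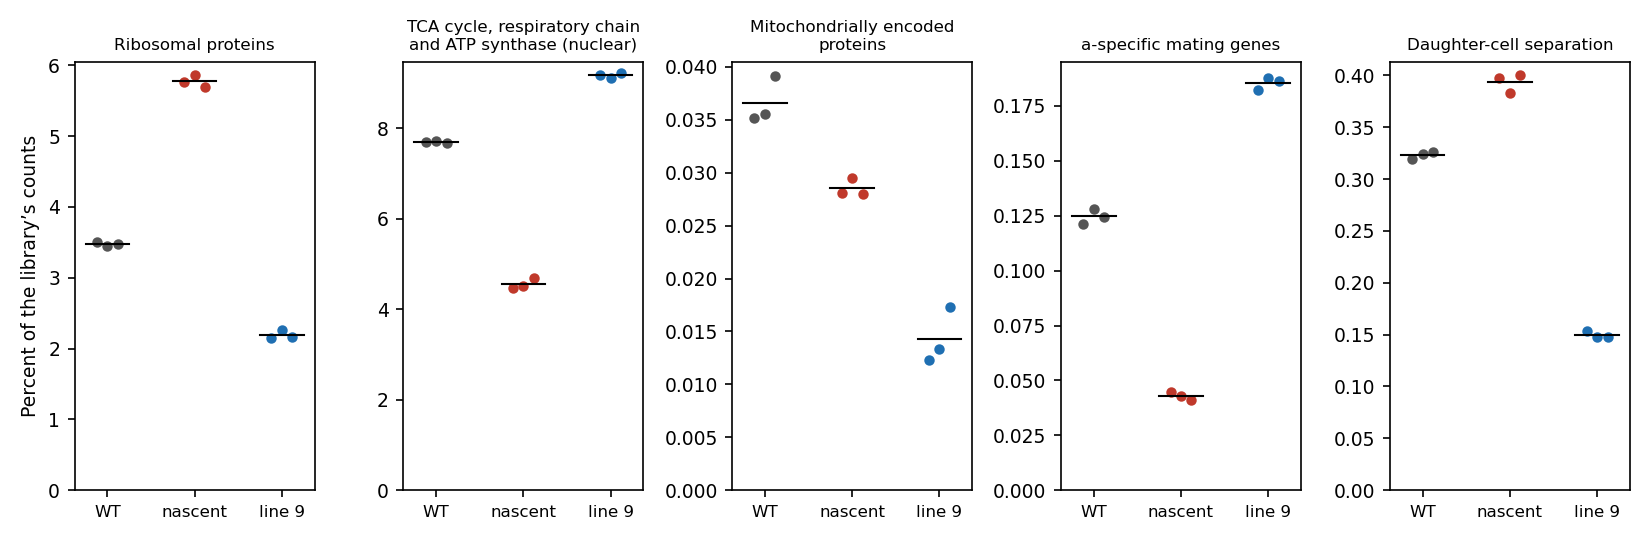
Percent of a library's counts taken by 5 groups of genes in WT, nascent *ulp2Δ* and line 9, with 1 point per library and the mean as a bar. Ribosomal proteins fall from 5.77% ± 0.0859 in nascent cells to 2.19% ± 0.0645 in line 9 (mean ± SD, n = 3), nuclear genes of respiration rise from 4.56% ± 0.107 to 9.17% ± 0.0557, and mitochondrially encoded proteins go from 0.0285% ± 0.00085 to 0.0143% ± 0.00263.

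In carbon metabolism the changes were split between members of a pathway. In glycolysis 4 of 17 genes rose (23.5%, against 3.75% of all genes) and none fell (median 0.63). *ENO1*, one of the enolase genes, went from 1574, 1534 and 1562 CPM to 4407, 4838 and 5045 CPM (log2 fold change 1.61, standard error 0.06, adjusted p = 2.3e-12), and *TDH1*, a glyceraldehyde phosphate dehydrogenase gene, from 1183, 1162 and 1169 CPM to 3280.4, 3481 and 3452 CPM (log2 fold change 1.54, standard error 0.04, adjusted p = 7.31e-14). WT was above line 9 for both, with 5422 and 5856 CPM. The hexokinase gene *HXK1* had 1257, 1318 and 1329.8 CPM and 906, 934 and 945 CPM, a value of -0.49 that was not called, and *HXK2* was at -0.29.

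Genes of fermentation moved both ways, with 1 rise and 2 falls among 15 (median 0.08, or 0.21 off I and XII and -0.10 under library totals). These are 6.67% and 13.3%, against 3.75% and 10.6% of all genes. *ADH1*, the alcohol dehydrogenase that forms ethanol, rose from 1748, 1759.6 and 1679.8 CPM to 3338, 3831 and 3839.7 CPM (log2 fold change 1.09, standard error 0.06, adjusted p = 5e-10), a change of 0.91 under library totals. *ADH2*, which consumes ethanol, fell from 2793, 2777 and 2945 CPM to 1123, 1288 and 1247 CPM (log2 fold change -1.22, standard error 0.06, adjusted p = 2.16e-11), and *ALD3*, a stress-induced aldehyde dehydrogenase, fell with a value of -1.90. *ADH5* was at 0.91. Both falls, *ADH2* and *ALD3*, lie on chromosome XIII, which was itself shifted. Genes of this list resemble their paralogs closely, so counts may be shared among them.

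Hexose transporters, with the genes that sense and relay glucose, held 7 falls and no rise among 16 genes (median -0.79). The falls are 43.8% of the list, and over all genes 10.6% fell and 3.75% rose. Beside *HXT2*, *HXT10* fell from 8.85, 8.68 and 9.41 CPM to 1.62, 1.77 and 2.18 CPM (log2 fold change -2.27, standard error 0.17, adjusted p = 9.46e-09), while *HXT5* (0.52) and the sensor *SNF3* (0.47) had higher values under 2-fold. In gluconeogenesis and the glyoxylate cycle 2 of 12 genes rose and none fell: *IDP2*, above, and *PYC1*, pyruvate carboxylase, with 2461, 2408 and 2576 CPM and 5565, 5545 and 6078 CPM (log2 fold change 1.21, standard error 0.05, adjusted p = 2.83e-12). *ICL1*, isocitrate lyase, did not separate the groups, with 4333, 4206 and 4465 and 4273, 4263 and 4438 CPM, and *CIT2*, the peroxisomal citrate synthase, had 2134, 2101 and 2184 and 2235, 2236 and 2259.8 CPM (log2 fold change 0.07, standard error 0.04, adjusted p = 0.0905). The acetate transporter *ADY2* was at -0.43.

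Of 13 glycogen genes 2 rose (15.4%) and none fell (median 0.58), where 3.75% of all genes rose and 10.6% fell. *GPH1*, the phosphorylase that degrades glycogen, went from 642, 659 and 651 CPM to 1532, 1553 and 1563 CPM (log2 fold change 1.25, standard error 0.03, adjusted p = 8.59e-14), and *GLC3*, the branching enzyme, from 883, 872 and 923 CPM to 1797, 1857 and 1862 CPM (log2 fold change 1.04, standard error 0.04, adjusted p = 3.92e-12); under library totals *GLC3* was at 0.86. The debranching enzyme gene *GDB1* (0.58) was higher in each line 9 library but below 2-fold, and *PGM1* (-0.79) and *PIG1* (-0.22) had lower values. Neither edgeR nor DESeq2 called any of 7 trehalose genes, 5 of which had an unadjusted p under 0.05 in edgeR (median 0.07, or -0.11 under library totals), their values running from *TPS3* (-0.38) and *TSL1* (-0.36) to *ATH1* (0.40) and *NTH1* (0.54). In peroxisomal fatty acid oxidation *POT1*, the thiolase, was the 1 rise of 17, from 97.4, 99.8 and 98.9 CPM to 208, 209 and 218 CPM (log2 fold change 1.10, standard error 0.04, adjusted p = 7.08e-13); *FOX2* was at 0.80, *SPS19* at -0.26 and *OAF1* on chromosome I at -0.81.

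Chaperone genes changed in both directions, with 6 falls and 2 rises among 26 (median -0.50). These are 23.1% and 7.69%, against 10.6% and 3.75% of all genes. Beside *BTN2*, *CPR6*, an Hsp90 co-chaperone on chromosome XII, fell from 965, 995 and 963 CPM to 256, 239 and 250.4 CPM (log2 fold change -1.97, standard error 0.04, adjusted p = 1.43e-14), -1.21 from its chromosome's median. The rises were *SSC1*, the mitochondrial Hsp70, from 893, 931 and 944 CPM to 2016, 2012 and 2143 CPM (log2 fold change 1.16, standard error 0.04, adjusted p = 1.58e-12), and the small heat shock protein *HSP26* (1.02), whose call was lost without line 9 replicate 3 (1.00, below 2-fold before rounding) or nascent replicate 1 (0.98). Antioxidant enzymes gave 4 rises (19.0%) and 1 fall (4.76%) among 21 (median 0.56), against the same shares of all genes. *SOD2*, the superoxide dismutase of mitochondria, rose from 759, 739 and 754 CPM to 2384, 2470.1 and 2542 CPM (log2 fold change 1.72, standard error 0.05, adjusted p = 8.11e-14), and *GRX2*, a glutaredoxin, rose with a value of 1.27. *AHP1*, a peroxiredoxin on chromosome XII, fell from 2108, 2068 and 1960.3 CPM to 622, 662 and 641 CPM (log2 fold change -1.67, standard error 0.05, adjusted p = 2.59e-13), and *TRX1* on the same chromosome was at -0.58.

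Genes of iron uptake and use fell in 5 of 25 cases and rose in none (median -0.52). Off I and XII 3 of 20 fell, against 7.97% of all genes there, and the median was -0.32. *TIS11*, which destabilises mRNAs when iron is scarce and lies on chromosome XII, went from 46.1, 45.4 and 45.2 CPM to 9.19, 6.85 and 9.68 CPM (log2 fold change -2.41, standard error 0.13, adjusted p = 1.48e-10), and the reductase gene *FRE5* from 6.03, 5.56 and 6.38 CPM to 1.27, 0.635 and 0.246 CPM (log2 fold change -3.10, standard error 0.38, adjusted p = 2.07e-06). *ARN1* (0.44) and *FRE3* (0.45) had higher values below 2-fold. The list took 0.319% to 0.325% of the nascent counts, 0.183% to 0.191% of the line 9 counts and 0.180% to 0.188% of the WT counts, so the shares of line 9 and WT overlapped. In sulfur and methionine metabolism 5 of 28 genes fell, 4 of them on I or XII, and none rose (median -0.32, and -0.16 for the 23 genes off these chromosomes, of which 1 fell). The 5 falls are 17.9% of the list, against 10.6% of all genes. *CYS3*, cystathionine gamma-lyase on chromosome I, went from 326, 329.6 and 309.5 CPM to 81.4, 81.7 and 87.6 CPM (log2 fold change -1.94, standard error 0.06, adjusted p = 2.39e-13), and *HOM3*, aspartate kinase, from 112, 107 and 100.1 CPM to 42.5, 45.4 and 45.4 CPM (log2 fold change -1.26, standard error 0.06, adjusted p = 2.26e-11). *MET6* was at 0.76 and *SUL1* at 0.71.

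Cell wall proteins changed in both directions, with 3 rises and 5 falls among 27 (median -0.65). These are 11.1% and 18.5%, against 3.75% and 10.6% of all genes. *YGP1*, a secreted glycoprotein made on nutrient limitation, rose from 1235, 1197 and 1283 CPM to 3896, 3960 and 4067 CPM (log2 fold change 1.68, standard error 0.04, adjusted p = 4.81e-14), and *PST1*, induced by cell wall damage, rose from 694, 687 and 696 CPM to 1689.5, 1719 and 1769.8 CPM (log2 fold change 1.32, standard error 0.04, adjusted p = 2.34e-13). The mannoprotein genes *DAN1* (-2.53) and *TIR1* (-2.07), both known for expression without oxygen, fell; *TIR1* had 28.6, 30.9 and 29.3 CPM in nascent cells and 6.04, 7.35 and 7.72 CPM in line 9. Phosphate genes gave 3 rises (16.7%) and 1 fall (5.56%) among 18 (median 0.27), against the same shares of all genes. *PHO5*, the secreted acid phosphatase, rose from 40.7, 44.8 and 40.6 CPM to 122, 121 and 115 CPM (log2 fold change 1.51, standard error 0.05, adjusted p = 8.72e-13) but stayed under its WT mean of 401 CPM, *GIT1* rose with a value of 1.55, and *PHO89*, the sodium phosphate symporter, fell from 389, 404 and 423 CPM to 116, 128 and 131 CPM (log2 fold change -1.69, standard error 0.05, adjusted p = 2.11e-13). *PHO90* was at -0.78.

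The lists that follow, of pyrimidines, arginine and lysine, ergosterol and thiamine, had few calls, with shares of falls between 0.00% and 15.4% against 10.6% of all genes. Their shares of rises lay between 0.00% and 7.69%, against 3.75% of all genes. Pyrimidine genes gave 1 rise and 2 falls among 13 (median -0.10, or 0.00 off I and XII). *URA2*, the enzyme of the first steps of pyrimidine synthesis, rose from 1212, 1212 and 1165 CPM to 2759, 2770.2 and 2843 CPM (log2 fold change 1.22, standard error 0.04, adjusted p = 2.14e-13) with WT at 603 ± 7.03 CPM (SD, n = 3), and *URA1* was at 0.99, just under 2-fold. The falls were *PPR1* (-1.08), the activator of the pathway on chromosome XII, and *URA7* (-1.07), a CTP synthase. Arginine and lysine synthesis gave 1 rise among 17, that of *ARG1*, argininosuccinate synthase, from 75.8, 71.4 and 77 CPM to 168, 179 and 177 CPM (log2 fold change 1.23, standard error 0.05, adjusted p = 2.01e-12), with *ARG8* at 0.93, *CPA1* at -0.26 and *ARG7* at -0.48. Ergosterol synthesis gave 1 fall among 25 (median -0.08, or 0.17 off I and XII), its activator *UPC2* (-1.46), beside *ERG27* (-0.83), *ERG20* (0.59) and *ERG28* (0.87), none of which was called. Thiamine genes gave 2 falls among 17, *THI4* (-1.72) and, on chromosome XII, *THI73* (-1.44), with *THI6* at 0.36 and *THI13* at 0.39.

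Among genes of the genome's upkeep, 3 of 14 for ribonucleotide reductase and DNA damage fell (21.4%, against 10.6% of all genes) and none rose (median -0.39). *HUG1*, which inhibits ribonucleotide reductase, went from 14.3, 13.5 and 11.8 CPM to 3.2, 4.08 and 3.33 CPM (log2 fold change -1.89, standard error 0.16, adjusted p = 2.79e-08). The small-subunit genes of that enzyme, *RNR4* (0.87) and *RNR2* (0.53), had higher values under 2-fold. Of 11 histone genes only *HTB2*, an H2B gene, was called (9.09%, near the 10.6% of all genes), with 119.5, 109 and 113 CPM and 54.9, 54.4 and 49.6 CPM (log2 fold change -1.10, standard error 0.05, adjusted p = 5.09e-11). *HTA2* (-0.89), *HHT2* (0.17) and *HTB1* (0.32) were not called. In the silencing list 1 gene rose and 1 fell of 14, each 7.14%, against 3.75% and 10.6% of all genes. *SIR2*, the NAD-dependent histone deacetylase, rose from 27.2, 33.6 and 36.5 CPM to 71.5, 69.8 and 74.2 CPM (log2 fold change 1.14, standard error 0.08, adjusted p = 1.91e-09), a change of 0.97 under library totals. *SIR3*, its partner in silent chromatin on chromosome XII, fell from 96.4, 99.2 and 96.9 CPM to 42.8, 46 and 45.6 CPM (log2 fold change -1.12, standard error 0.05, adjusted p = 8.92e-12), which was -0.36 from the median of its chromosome. *SIR4* was at 0.52 and *HST3* at -0.78.

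In the SUMO pathway no change reached 2-fold. None of its 17 genes was called by edgeR or DESeq2, where edgeR called 3.75% of all genes higher and 10.6% lower. Of the 17, 13 had a p under 0.05 in edgeR, unadjusted and adjusted alike, and the median was 0.19. *SMT3* had 186, 202 and 190.3 CPM in nascent cells and 224, 212 and 192 CPM in line 9 (log2 fold change 0.12, standard error 0.05, adjusted p = 0.0413), and these overlapped. Of the E1 subunits, *UBA2* had 80.2, 84.1 and 91.5 CPM and 102, 97.7 and 96.6 CPM (log2 fold change 0.21, standard error 0.06, adjusted p = 0.0029), and *AOS1* was at 0.37. *UBC9*, the E2, had 53.5, 60.9 and 61.4 CPM and 51.2, 49.2 and 50.2 CPM (log2 fold change -0.22, standard error 0.06, adjusted p = 0.00219). The E3 ligase gene *SIZ1* (0.50) and the remaining protease gene *ULP1* (0.33) had higher values under 2-fold, and *SLX5* (-0.32) and *CST9* (-0.31), the latter on chromosome XII, had lower ones. In the proteasome list neither tool called any of 34 genes, 32 of which had an unadjusted p under 0.05 in edgeR (median 0.27), with *RPN8* (0.60) and *RPT5* (0.56) highest and *RPN4* (-0.42) and *RPN13* on XII (-0.81) lowest.

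**Figure D4:**
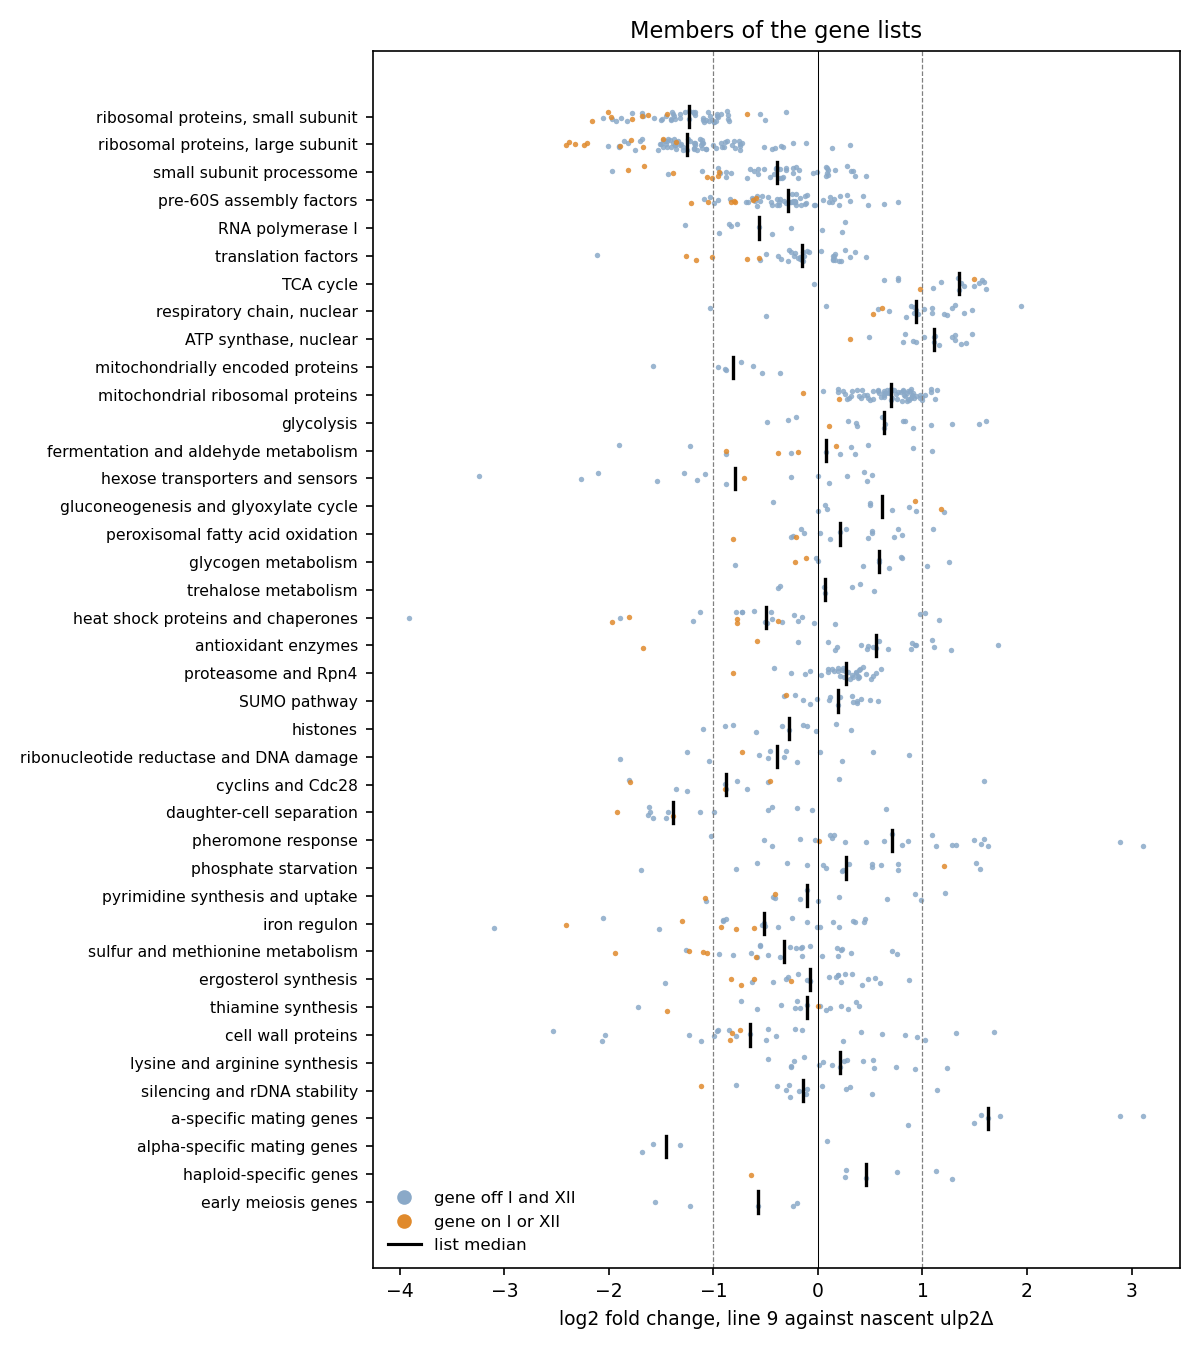
Log2 fold change, line 9 against nascent *ulp2Δ*, of each tested member of the 40 gene lists. A point is 1 gene, orange on chromosome I or XII and blue elsewhere, the black bar is the list's median and dashed lines mark 2-fold. Ribosomal protein lists lie below -1 at the median, and the TCA cycle, ATP synthase and a-specific lists lie above 1.

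Line 9 against WT and line 9 against nascent cells share the line 9 libraries, so their values are given side by side only. Against WT, 111 genes rose and 315 fell of 6372 (1.74% and 4.94%), against 239 and 677 (3.75% and 10.6%) relative to nascent cells. The list medians were 0.36 against WT and 1.35 against nascent cells for the TCA cycle, 0.14 and 0.94 for the respiratory chain, 0.13 and 1.11 for the ATP synthase and 0.65 and 1.63 for the a-specific genes. For the small subunit processome they were -0.66 and -0.39, for pre-60S factors -0.64 and -0.29, for daughter-cell separation -0.93 and -1.39 and for cyclins -0.87 and -0.88. Mitochondrially encoded proteins had -1.39 and -0.81.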

How the data were processed

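RNA-seq counts of 12 libraries were used, 3 for each of 4 groups, and groups were taken from the sample titles. According to the study's methods and the labels, the authors trimmed paired reads (Trim Galore 0.5.0), mapped them to sacCer3 (HISAT2 2.1.0), quantified genes (StringTie 1.3.3b) and tested with DESeq2 1.22.1; the count table as deposited holds whole numbers, not normalized. Strandedness and the way coverage became counts are not given in the sources used here, so overlapping, antisense and near-identical genes are uncertain. Of 7114 features, 6 unnamed loci (0.0826% to 0.173% of counts) were left out, and 6011 ids matched the R64 annotation.

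Counts were fitted in R 4.3.3 with edgeR 4.0.16 (TMM, filterByExpr, glmQLFit and glmQLFTest; all 12 libraries, 1 mean per group, no covariate) and genes were called at 2-fold with p-values adjusted by Benjamini and Hochberg, threshold 0.05. CPM are scaled by TMM. Steps were tested on simulated counts. Alternatives used DESeq2 1.42.0, limma 3.58.1, other scalings, filters and thresholds, the replicate block and each library left out. Named genes were the 10 largest rises and falls off I and XII and the 5 on them (at least 50 mean counts in the higher group, no overlap, also called by DESeq2), the 2 highest and lowest of each list, and 11 fixed genes of the SUMO pathway and metabolism. COX5A, STE2, STE6, SDH2 and RPL22B were named outside this rule after their values were seen. The members, the 40 lists and the tests were chosen with earlier results of these data known. Promoters were read 250 bases before to 50 after the start codon.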

Additional observations from a re-analysis of the deposited data

Results flagged for a closer look

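The evolved lines share the nascent libraries as their reference, and the difference between their changes is the direct contrast of line 9 with line 6 in edgeR's quasi-likelihood test. Among the genes with the largest changes in line 9, 7 differed between the lines by 2-fold or more with an adjusted p under 0.05. *YHB1* stood at 1469.7 ± 49.2 CPM in line 9 and 511 ± 1.07 CPM in line 6 (SD, n = 3), a difference of 1.53 (log2, line 9 minus line 6; adjusted p = 2.71e-13), higher in each of the 3 line 9 libraries. *STL1* stood at 543 ± 7.35 and 223 ± 6.75 CPM (SD, n = 3), a difference of 1.29 (log2, line 9 minus line 6; adjusted p = 1.55e-12). Both rises were thus larger in line 9. The rise of *MFA2* was smaller there, with 476 ± 13.1 CPM against 1101 ± 72.6 CPM in line 6 (SD, n = 3) and a difference of -1.21 (log2, line 9 minus line 6; adjusted p = 1.19e-11).

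The fall of *HXT2* was deeper in line 9, at 12.5 ± 0.525 CPM against 29.3 ± 2.69 CPM (SD, n = 3), a difference of -1.23 (log2, line 9 minus line 6; adjusted p = 5.81e-10). Differences at low counts were found for *YMR141C* at -5.00 with adjusted p = 0.033, where line 9 had 2 counts in all, for *YKL177W* at -1.07 with adjusted p = 0.0268 and for *PAU4* at -1.19 with adjusted p = 0.0376.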

How the results depend on the processing

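Of the 175 named genes 102 were called, and 14 of these lost the call in at least 1 of 17 alternatives, 11 of them under library totals, and none changed sign. The counts of genes off chromosomes I and XII moved most with the threshold: without a fold threshold 2407 genes were higher and 1854 lower there, with 30 and 562 on I and XII. With glmTreat at 1.5-fold, 552 genes were higher off I and XII and 336 lower on them. With library totals 138 genes were higher off I and XII. The shift of chromosome I was -0.79 with no filter on low counts, and that of chromosome XII was -0.81 with limma-voom, -0.82 with a mean of at least 50 counts and -0.80 with no filter. With each library left out in turn, the shift of XII ranged from -0.84 to -0.82 and that of I from -0.89 to -0.85, and the counts were 214 to 234 higher and 458 to 477 lower off I and XII and 5 to 7 higher and 220 to 233 lower on them. Setting chromosome XIII aside as well, an alternative chosen after seeing the data, left 225 higher and 390 lower.

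The following values changed sign. Under library totals the median of fermentation genes was -0.10 and that of trehalose genes -0.11, while RPL4A was at -0.05, HHT2 at -0.01, SAG1 at -0.09, SMT3 at -0.06 and CIT2 at -0.11. With scaling without I and XII, trehalose genes had -0.01 and CIT2 -0.00. With 1 library left out, the median of thiamine genes ranged from -0.16 to 0.01 and ULP2 from -0.20 (without line 9 replicate 3) to 1.04; without line 9 replicate 2 ICL1 had 0.01 and without nascent replicate 3 it had 0.00. The cause was not tested beyond the construction of each alternative. DESeq2 called 911 genes, 905 of them among the 916 of edgeR.

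The replicate numbers showed at most a weak pairing. The correlations of same-numbered line 9 and nascent libraries were 0.031 to 0.111, and those of different-numbered ones -0.123 to 0.061. Over the 4 groups same-numbered libraries had -0.137 to 0.111. With the replicate block 917 genes were called, 908 of them among the 916. At this depth, genes of a few CPM carry few counts, and their fold changes are the least precise.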

Other observations

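Genes known for expression when oxygen is low were lower in line 9 at several loci. The list was written after *ANB1*, *COX5B* and *TIR1* had been seen, so it is a description only. Of 12 such genes, 5 fell and none rose, with a median log2 fold change of -0.90, against -0.29 for line 9 against WT. Over all genes 10.6% fell, but the 5 falls include the genes that prompted the list, so these shares cannot be compared. Beside those 3 genes and *DAN1*, the fall was that of *AAC3* (-1.70), the ADP/ATP carrier of anaerobic cells, with 3.39, 3.43 and 3.63 CPM in nascent cells and 1.31, 1.1 and 0.807 CPM in line 9. Not all members were lower. *HEM13*, a heme synthesis gene (0.28), and the repressor gene *ROX1* (0.15) were higher in each line 9 library, under 2-fold. The libraries overlapped for *DAN4* (-0.08).

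Of 16 seripauperin (PAU) genes tested, a subtelomeric family of closely related sequence whose reads may be shared, 10 fell and none rose (median -1.28), where 10.6% of all genes fell. Of these genes 5 lie on chromosomes I and XII. *PAU23* on chromosome XII went from 73.1, 72.9 and 68 CPM to 32.5, 32.2 and 29.5 CPM (-1.18), and *PAU2* was at 0.41. Of 18 tested genes whose names begin with SPO, 6 fell and none rose (median -0.28), where 10.6% of all genes fell. On chromosomes I and XII lay 3 of the 18, including the falls *SPO75* (-3.24) and *SPO77* (-2.95). *SPO20*, a gene of spore membrane formation on chromosome XIII, went from 22.3, 21.9 and 20.8 CPM to 7.53, 7.72 and 7.4 CPM (-1.52), while *SPO22* (0.85) and *SPO12* (0.65) had higher values under 2-fold. These lists were also chosen after their values were seen.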
